A study of Mus musculus with 6 samples.

Results

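The nuclear genes of respiratory complexes II to V were described in the gastrocnemius, the large calf muscle, of C57BL/6 mice aged 9 weeks. Members were chosen by symbol alone: the 4 subunits of succinate dehydrogenase, all genes beginning with Uqcr, cytochrome c1 and cytochrome c, the Cox4 to Cox8 genes and the Atp5 genes. This gave 49 of the 19458 genes in the tables, and 46 of the 49 had enough counts to be tested. RNA-seq had been done on 3 libraries from Tmem182 knockout mice (genotype tmem182-/-) and 3 from wild-type mice, and the only contrast is knockout against wild type. Tmem182 encodes a membrane protein of striated muscle; the sources used here do not say how the allele was made.

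The respiratory chain passes electrons from fuel oxidation to oxygen and stores the energy as a proton gradient across the inner mitochondrial membrane. Complex II (succinate dehydrogenase) feeds electrons to ubiquinone, complex III passes them to cytochrome c, complex IV (cytochrome c oxidase) reduces oxygen, and complex V (ATP synthase) uses the gradient to make ATP. Slow and intermediate muscle fibres hold more mitochondria than the fastest fibres. Several small subunits of complex IV exist as a form of heart and skeletal muscle and a form found in most tissues.

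The promoters of such isoform genes are shown first, because part of the results compares the levels of these forms. The sequences are from RefSeq on GRCm38.p6, run 5′ to 3′ on the strand of the gene, and end before the transcription start of both RefSeq and GENCODE M21; capitals mark CG dinucleotides.
Cox7a1, muscle form, chr7:30183921-30184143, plus strand: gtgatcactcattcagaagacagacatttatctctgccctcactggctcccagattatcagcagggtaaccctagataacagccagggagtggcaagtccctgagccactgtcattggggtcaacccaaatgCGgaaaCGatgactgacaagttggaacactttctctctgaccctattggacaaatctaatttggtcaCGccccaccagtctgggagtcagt
Cox7a2, widespread form, chr9:79759879-79760103, minus strand: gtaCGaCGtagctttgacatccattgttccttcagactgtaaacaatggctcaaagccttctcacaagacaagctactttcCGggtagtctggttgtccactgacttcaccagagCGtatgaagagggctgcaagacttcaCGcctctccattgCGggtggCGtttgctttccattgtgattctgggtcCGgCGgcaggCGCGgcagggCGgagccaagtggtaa
Cox8b, muscle form, chr7:140900447-140900696, minus strand: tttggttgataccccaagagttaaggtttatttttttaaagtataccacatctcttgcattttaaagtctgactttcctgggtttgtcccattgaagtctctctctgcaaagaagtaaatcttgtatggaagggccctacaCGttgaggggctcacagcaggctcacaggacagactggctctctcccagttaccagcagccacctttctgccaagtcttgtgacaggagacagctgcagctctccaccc
Cox8a, widespread form, chr19:7217617-7217866, minus strand: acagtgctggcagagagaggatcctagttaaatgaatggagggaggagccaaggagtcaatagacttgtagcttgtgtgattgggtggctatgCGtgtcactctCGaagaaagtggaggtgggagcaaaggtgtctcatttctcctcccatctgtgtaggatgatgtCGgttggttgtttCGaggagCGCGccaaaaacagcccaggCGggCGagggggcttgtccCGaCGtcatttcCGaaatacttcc
Cox6a1, widespread form, chr5:115348982-115349208, minus strand: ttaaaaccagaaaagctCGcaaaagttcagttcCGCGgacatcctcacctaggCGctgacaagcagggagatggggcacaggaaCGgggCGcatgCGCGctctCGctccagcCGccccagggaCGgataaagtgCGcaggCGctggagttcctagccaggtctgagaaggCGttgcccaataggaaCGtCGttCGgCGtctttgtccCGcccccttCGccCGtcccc

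In the 250 bases upstream of the RefSeq start, the muscle forms Cox7a1 and Cox8b held fewer CG dinucleotides than the widespread forms; Cox6a2 had no entry in the table and is not in this comparison. Cox8b had 1 and Cox7a1 had 4, against 11 in Cox8a, 14 in Cox7a2 and 26 in Cox6a1. The sequences printed for Cox7a1, Cox7a2 and Cox6a1 are shorter than these windows, because they end before the GENCODE start, and hold 3, 12 and 21. The median was 14 over the 40 windows of the 37 members with an entry, and 6 over all 32851 windows in the table; fewer CG dinucleotides than in Cox8b were found in 7.87% of all windows. Several motifs were searched on both strands, those of factors known for respiratory genes among them. The motif of NRF1 was in 7 of the 40 windows of members (17.5%) and in 3.74% of all windows. CCGGAAG, which ETS factors such as GABP bind, was in 9 of 40 (22.5%) and in 6.91% of all windows. Cox6a1 held both motifs, with GCGCATGCGC from -162 to -153. Its ETS motif, CTTCCGG when read on the strand of the gene, ran from -16 to -10. That stretch is past the end of the printed sequence and inside the GENCODE gene. Neither motif was in the windows of Cox7a1, Cox7a2, Cox8b or Cox8a. The NRF1 motif holds 2 or more CG dinucleotides and the ETS motif holds 1, so these shares and the CG counts are not separate observations. CANNTG, the E-box, was in 62.5% of the windows of members and 66.2% of all windows. AAGGTCA, which ERR factors bind, was in 2 of 40 (5.0%) and in 4.08% of all windows. The CCAAT box was in 55.0% of the windows of members and 33.8% of all windows, and TATAAA in 5.0% and 12.4%. The motif of MEF2 factors was in 0 of 40 and in 2.92% of all windows.

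Source labels of knockout libraries 2 and 3 name Tmem genes with other numbers, while their genotype field names Tmem182; the protocol text speaks of cultured cells, while tissue and source give muscle. Tmem182 was at 6.23, 4.30 and 2.17 FPKM in knockout libraries 1, 2 and 3 and at 147.48, 121.39 and 120.97 FPKM in wild type. It fell by 5.02 on the log2 scale (SE 0.30; adjusted p = 0.00391, edgeR), and was low in all 3 knockout libraries. FPKM are fragments per kilobase of transcript, scaled to the size of the library, and allow levels of different genes to be compared. Depth was 16212341 to 18672630 expected counts per library. Knockout library 1 stood apart, with 22.0% of counts in its 10 most abundant genes against 28.2% to 31.9% in the other 5. The summed FPKM of 10 fast fibre genes were 65435 there and 87991 to 99680 in the others. Marker sums for other cells were highest there too: 13.6 FPKM for 3 macrophage genes against 3.99 to 5.59, 158.5 for 3 Schwann cell genes against 8.17 to 101.2, and 59.95 for 7 adipocyte genes against 7.84 to 21.66. In FPKM this library was the highest of the 6 for 62.2% of all genes tested, so a highest sum there is not particular to these cells. The sum of 4 cardiac genes was 0.34 to 3.08 FPKM, and Ucp1, which defines brown adipocytes, was at 0 in all 6 libraries. Mitochondrially encoded subunits were not analysed here. Values without single libraries are given where they moved a named result by more than 1.5 times or, where its sign changed, among the alternative settings at the end.

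Transcripts of complexes II to V were abundant. Of the 49 members, 38 had a mean above 100 FPKM over the 6 libraries, a level reached by 2.47% of all genes. The highest was Cox6a2, the muscle form of complex IV subunit 6a, at 1397.26, 1176.24 and 1068.48 FPKM in knockout libraries 1, 2 and 3 and 1398.47, 1070.26 and 1177.28 FPKM in wild-type libraries 1, 2 and 3. The ranges of the groups overlapped. Next came Atp5b, the catalytic beta subunit of ATP synthase, at 1320.75, 1010.80 and 951.81 FPKM in knockout and 1191.81, 824.52 and 1100.21 FPKM in wild-type muscle. Knockout library 1 was the highest and wild-type library 2 the lowest of the 6. All members together held 1.71%, 1.25% and 1.2% of the expected counts in knockout and 1.44%, 1.02% and 1.31% in wild-type muscle, so the groups overlapped.

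**Figure D1:**
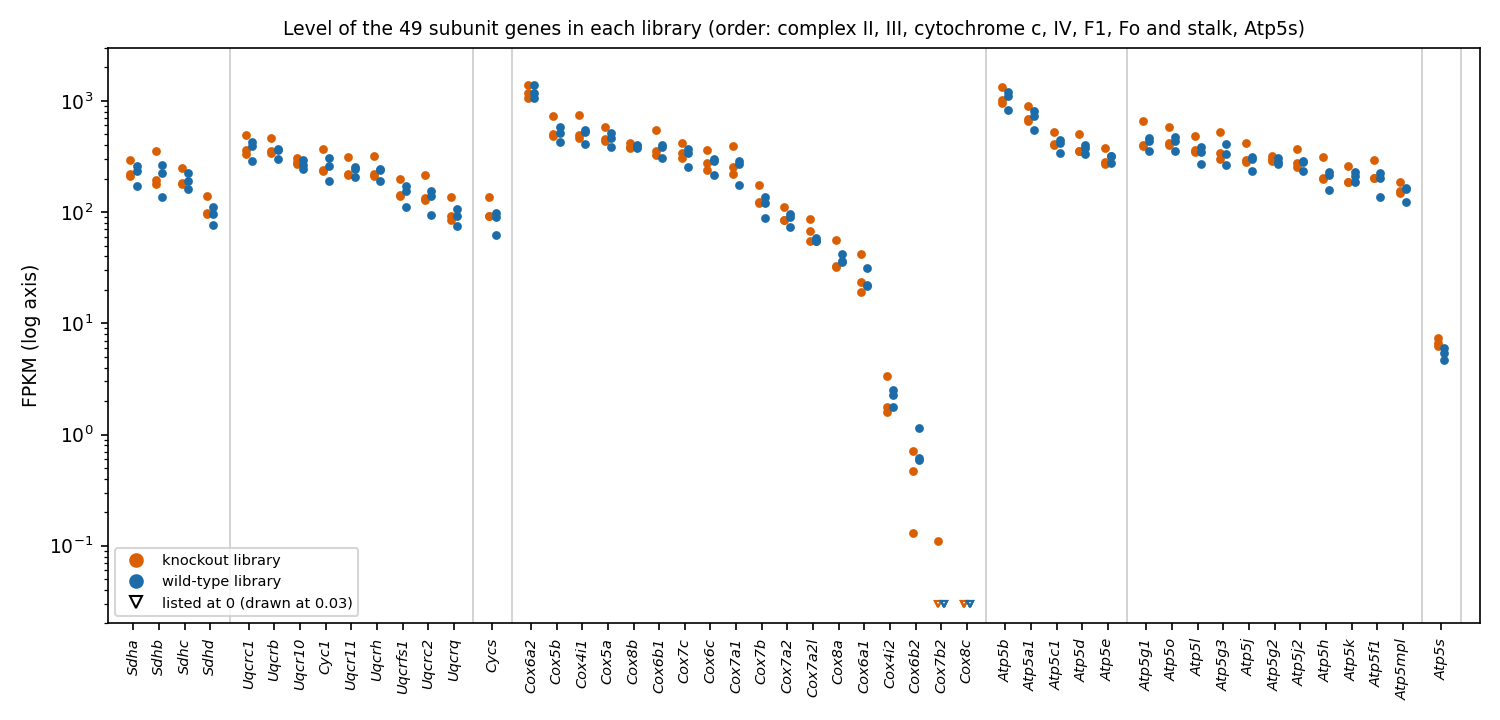
FPKM of each of the 49 genes (log axis) in 3 knockout libraries (orange) and 3 wild-type libraries (blue), grouped by complex and ordered by mean level; open triangles mark genes listed at 0. Most genes lie above 100 FPKM, while the minor isoforms of complex IV and Atp5s lie far below, and the groups overlap for all genes except Atp5s.

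No member differed between knockout and wild type past the threshold. By edgeR's quasi-likelihood test 0 of 46 members had an adjusted p under 0.05, where 1 of all 12774 genes tested (0.00783%), Tmem182 itself, did. At an unadjusted p under 0.05 there were 0 of 46 members, against 3.55% of all genes tested (2.07% higher and 1.48% lower in the knockout), and DESeq2 called 0 members as well. The largest log2 fold change in size was 0.28, and the 95% interval included 0 for all 46 members. Over all members the intervals ran from -0.76 (Cox4i2) to 0.73 (Sdhb) on the log2 scale, 2 of the widest; the narrowest, that of Uqcr10, ran from -0.18 to 0.28. What could be detected therefore differed from gene to gene. Whether the 3 libraries of a group are 3 mice is not stated in the labels; the spread behind each p-value is that of the samples and may be technical.

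A higher mean in the knockout was seen for 39 of 46 members, against 51.1% of all genes tested. The median log2 fold change of the 46 was 0.07, against 0.0046 for all genes tested. This lean depended on single libraries. Without wild-type library 2 only 16 of 46 were higher (median -0.02), and without knockout library 1 it was 26 of 46 (median 0.0040). With limma-voom and library quality weights it was 12 of 46 (median -0.04), and with a covariate for slow fibre genes 32 of 46 (median 0.02). Scaling by library totals instead of TMM made 45 of 46 higher (median 0.15), and 67.1% of all genes with them; limma on log2(FPKM + 1) made 43 of 46 members and 65.8% of all genes higher.

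**Figure D2:**
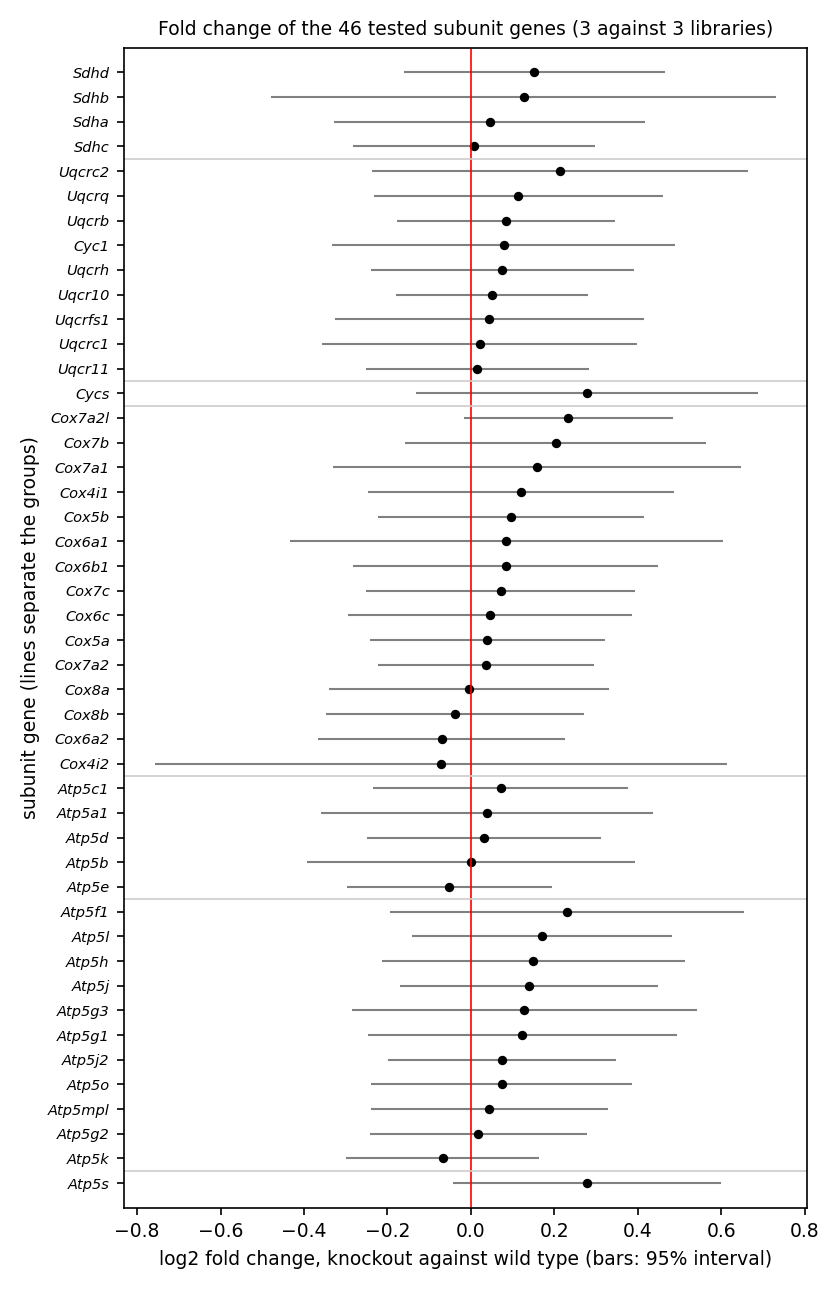
Log2 fold change of the 46 tested genes, knockout against wild type (points), with the 95% interval of edgeR's quasi-likelihood fit (bars), grouped by complex in the order complex II, III, cytochrome c, IV, F1, Fo and stalk, Atp5s. All 46 intervals include 0.

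Complex II, which also works in the citric acid cycle, gave 4 higher means and 0 members past the threshold (median log2 fold change 0.09). Sdha, the flavoprotein that oxidises succinate, measured 291.17, 217.78 and 211.87 FPKM in knockout muscle and 259.18, 171.42 and 232.50 FPKM in wild-type muscle, with a log2 fold change of 0.05 (SE 0.16). Sdhb, the iron-sulphur subunit, measured 354.42, 195.17 and 180.54 FPKM in knockout and 265.80, 135.24 and 224.80 FPKM in wild-type muscle, with a log2 fold change of 0.13 (SE 0.26). Its 6 log2 CPM values had an SD of 0.38, the highest of the 46 members, whose median was 0.18. In knockout library 1 and wild-type library 1 it was the most abundant of the 4, while Sdha was in the other 4 libraries. The membrane anchors Sdhc and Sdhd gave log2 fold changes of 0.0071 (SE 0.12) for the first and 0.15 (SE 0.13) for the second. That of Sdhd was 0.08 with knockout library 1 left out and 0.04 with wild-type library 2 left out. Sdhd was the least abundant in every library, at 76.92 to 138.27 FPKM.

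Complex III gave 9 higher means of 9 tested, 0 past the threshold and a median log2 fold change of 0.08. The small subunit Uqcrq was the lowest of these genes in each library, at 74.27 to 136.95 FPKM. Uqcrc1, a large core protein, was the highest in 4 libraries, and Uqcrb, a small ubiquinone-binding subunit, in knockout library 3 and wild-type library 2. Uqcrc2, the other core protein, measured 214.28, 134.75 and 128.73 FPKM in knockout muscle and 153.80, 94.44 and 139.04 FPKM in wild-type muscle, with a log2 fold change of 0.21 (SE 0.19). The fold change was 0.07 with knockout library 1 left out and 0.04 with wild-type library 2 left out. The ranges overlapped, with knockout library 1 above and wild-type library 2 below the other 4. Counts of Uqcrc2 were not whole in any library. Cyc1, cytochrome c1, differed by 0.08 (SE 0.18) and Uqcrq by 0.11 (SE 0.15) on the log2 scale. Uqcr10, another small subunit, varied least of all 46 members, with an SD of 0.08 over 6 log2 CPM values.

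Cycs, cytochrome c, carries electrons from complex III to complex IV and takes part in cell death when released. It measured 137.50, 91.60 and 92.16 FPKM in knockout and 97.18, 62.00 and 90.84 FPKM in wild-type muscle, with a log2 fold change of 0.28 (SE 0.18). It was 0.18 with knockout library 1 left out and 0.11 with wild-type library 2 left out. Wild-type library 2 was below the other 5, while knockout libraries 2 and 3 lay inside the wild-type range. Its counts are uncertain: 29.2% of the 31-base words in its GENCODE transcripts also occur in transcripts of other genes, Gm10053 first among them.

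Of the 18 genes of complex IV 15 were tested, and 11 had a higher mean in the knockout, with 0 past the threshold and a median log2 fold change of 0.07. Cox4i1, the largest nuclear-encoded subunit, measured 751.03, 490.66 and 460.56 FPKM in knockout muscle and 543.50, 405.29 and 523.54 FPKM in wild-type muscle, with a log2 fold change of 0.12 (SE 0.16). Knockout library 1 lay above all others, while knockout libraries 2 and 3 lay inside the wild-type range. Cox5b and Cox7c, 2 structural subunits, differed by 0.10 (SE 0.14) and 0.07 (SE 0.14) on the log2 scale. Cox6b1, at the outer face of the complex, differed by 0.08 (SE 0.16), and Cox7b, which is X-linked, by 0.20 (SE 0.15). The difference of Cox7b was 0.13 with knockout library 1 left out and 0.05 with wild-type library 2 left out.

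For subunit 6a, transcripts of the muscle form prevailed. Cox6a1, the widespread form, measured 42.39, 23.34 and 19.14 FPKM in knockout and 31.36, 21.94 and 21.45 FPKM in wild-type muscle. Cox6a2 made up 97.1%, 98.1% and 98.2% of the summed FPKM of the 2 forms in knockout libraries, against 97.8%, 98.0% and 98.2% in wild type. The ratio of Cox6a2 to Cox6a1 was 33.0 in knockout library 1 and 44.6 to 55.8 in the other 5 libraries. Log2 fold changes were -0.07 (SE 0.13; -0.14 to -0.01 with 1 library left out) for Cox6a2 and 0.09 (SE 0.22) for Cox6a1, and that of Cox6a1 was -0.18 without knockout library 1. The log2 ratio was 5.50 ± 0.40 in the knockout against 5.62 ± 0.15 in wild type (SD, n = 3 each), a difference of -0.12 (exact permutation p = 0.9), and 0.11 without knockout library 1. Cox6a2 lies on chromosome 7 from 128205435 to 128206387 on the minus strand of GRCm38, where Itgad overlaps it on the other strand. Cox6a1 lies on chromosome 5 from 115345642 to 115348981 on the minus strand.

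For subunit 7a the forms were closer in level. Cox7a1, the muscle form (chromosome 7, 30184144 to 30186078, plus strand), measured 394.67, 254.63 and 220.03 FPKM in knockout and 268.44, 174.25 and 286.10 FPKM in wild-type muscle. Cox7a2, the widespread form (chromosome 9, 79755361 to 79759878, minus strand), measured 110.07, 83.95 and 84.74 FPKM (knockout) and 95.59, 72.83 and 89.58 FPKM (wild type). Cox7a1 thus held 78.2%, 75.2% and 72.2% of their sum in the knockout and 73.7%, 70.5% and 76.2% in wild type. The ratio was 3.59, 3.03 and 2.60 in the knockout and 2.81, 2.39 and 3.19 in wild type, so the groups overlapped. The log2 ratio differed by 0.13, from 1.47 ± 0.21 in wild type to 1.61 ± 0.23 in the knockout (SD, n = 3 each; exact permutation p = 0.5). That difference was 0.01 without knockout library 1, 0.02 without wild-type library 2, 0.23 without wild-type library 3 and 0.25 without knockout library 3. Log2 fold changes were 0.16 (SE 0.21) for Cox7a1 and 0.04 (SE 0.11) for Cox7a2.

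Cox7a2l, a relative of subunit 7a that joins complexes III and IV into supercomplexes and is carried in a shortened form by C57BL/6 mice, measured 86.37, 67.59 and 55.43 FPKM in knockout and 58.70, 54.66 and 54.78 FPKM in wild-type muscle. Knockout libraries 1 and 2 were above all wild-type libraries, and library 3 lay among them. Its log2 fold change was 0.23 (SE 0.11), the largest change relative to its error among the 46, with an adjusted p of 0.994 in the edgeR fit. In CPM scaled by TMM the knockout libraries lay above all wild-type libraries, as they did for 4.67% of all genes tested, against 4.51% the other way; 2 of 46 members did so. Of its 31-base words 16.6% also occur in Gm6969 or Gm10242.

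For subunit 8 the muscle form again prevailed, and it did not follow the other members across libraries. Cox8b (chromosome 7, 140898945 to 140900446, minus strand) measured 379.72, 420.03 and 385.06 FPKM in knockout and 404.73, 391.18 and 376.93 FPKM in wild-type muscle. These FPKM were nearly level in all 6 libraries, while in TMM-scaled CPM knockout library 1 was the lowest. Cox8a, the widespread form (chromosome 19, 7215153 to 7217616, minus strand), measured 56.06, 33.00 and 31.76 FPKM (knockout) and 41.81, 36.53 and 35.26 FPKM (wild type). Cox8b made up 87.1% of the subunit 8 transcripts in knockout library 1 and 90.6% to 92.7% in the other 5 libraries. The log2 ratio was 3.34 ± 0.51 in the knockout against 3.37 ± 0.08 in wild type (SD, n = 3 each), a difference of -0.03 (exact permutation p = 1). Without knockout library 1 it was 0.26 (exact permutation p = 0.2). Log2 fold changes were -0.04 (SE 0.13) for Cox8b and -0.0049 (SE 0.14) for Cox8a.

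The remaining isoforms were rare. Cox4i2, the form of subunit 4 known from lung, measured 3.34, 1.58 and 1.75 FPKM in knockout and 2.51, 1.75 and 2.28 FPKM in wild-type muscle, from 20 to 39 counts per library. It made up 0.32% to 0.46% of the subunit 4 transcripts, with a log2 fold change of -0.07 (SE 0.29). The log2 ratio of Cox4i2 to Cox4i1 was -8.04 ± 0.23 in the knockout against -7.82 ± 0.05 in wild type (SD, n = 3 each; difference -0.22, or -0.34 to -0.11 with 1 library left out; exact permutation p = 0.3). Cox6b2, Cox7b2 and Cox8c, known from testis, were too low to be tested. Cox6b2 had 1 to 9 counts per library and at most 1.14 FPKM, Cox7b2 had a single count in knockout library 2, and Cox8c was at 0 in all libraries. A count of 0 allows a level of up to 0.161 to 0.185 CPM, taking 3 counts as the limit; this covers counting error only.

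**Figure D3:**
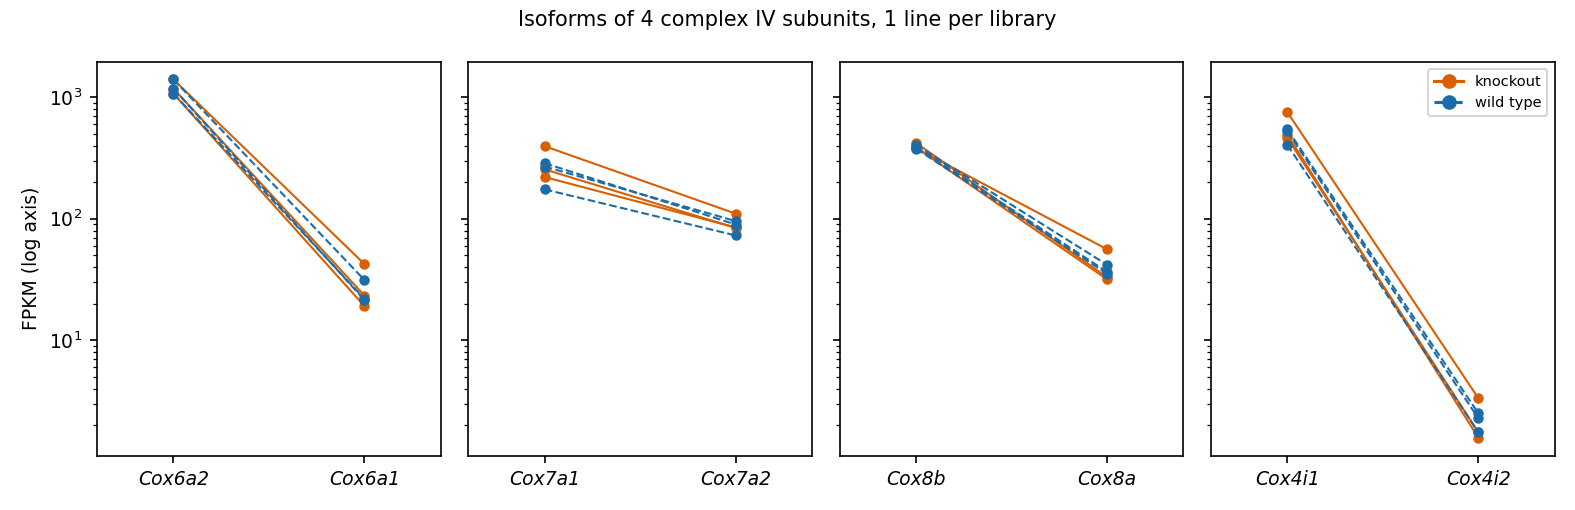
FPKM (log axis) of the muscle or main form (left point) and the other form (right point) of complex IV subunits 6a, 7a, 8 and 4; each line is 1 library, orange and solid for knockout, blue and dashed for wild type. The lines of the groups interleave in all 4 panels. Knockout library 1 is the highest for every gene shown except Cox6a2 and Cox8b, and for 43 of the 46 tested members in FPKM.

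None of the 6 isoform ratios passed a test between the groups: adjusted over the 6 ratios, each exact permutation p was 1, where 3 against 3 libraries cannot give less than 0.1 before adjustment. A p of this size does not show that the ratios are alike. In knockout library 1 the widespread forms Cox6a1 and Cox8a were highest in FPKM, and so were the macrophage, Schwann cell and adipocyte sums. Most members were also highest there, Cox7a1 and Cox4i1 among them, as were 62.2% of all genes tested in FPKM. The share of the muscle form was at its highest there for subunit 7a (78.2%) but at its lowest for subunits 6a (97.1%) and 8 (87.1%). The part of other cells in the ratios was not tested, and in bulk tissue fewer cells of a type and less RNA per cell cannot be told apart.

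The F1 sector of ATP synthase, where ATP is made, had 5 genes, 3 with a higher and 2 with a lower mean, and 0 past the threshold (median log2 fold change 0.03). Atp5b was the most and Atp5e, the epsilon subunit, the least abundant in each library. Atp5e measured 374.05, 284.37 and 269.74 FPKM in knockout muscle and 320.04, 273.37 and 317.08 FPKM in wild-type muscle, with a log2 fold change of -0.05 (SE 0.11). Atp5c1, the gamma subunit of the rotor, had a log2 fold change of 0.07 (SE 0.13).

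In the Fo sector and stalk, the membrane part that carries protons and holds the enzyme in place, 10 of 11 genes had a higher mean and 0 passed (median log2 fold change 0.12). Atp5f1, subunit b of the stalk, measured 293.52, 200.28 and 201.01 FPKM in knockout muscle and 222.75, 135.50 and 201.76 FPKM in wild-type muscle, with a log2 fold change of 0.23 (SE 0.18), or 0.15 with knockout library 1 left out and 0.06 with wild-type library 2 left out. Atp5l, subunit g, had a log2 fold change of 0.17 (SE 0.13), or 0.05 without wild-type library 2. Knockout libraries 2 and 3 lay inside the wild-type range for Atp5f1. Counts of Atp5f1 were not whole in any library, so some of its reads were divided with other genes.

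The c subunit, which forms the rotating ring, is encoded by 3 genes whose mature proteins are the same. Atp5g1 measured 654.14, 399.20 and 396.31 FPKM in knockout and 463.26, 351.09 and 434.15 FPKM in wild-type muscle. Atp5g3 measured 525.10, 341.63 and 299.92 FPKM (knockout) and 407.88, 262.80 and 333.84 FPKM (wild type). Both were highest in knockout library 1. Atp5g2 measured 321.80, 302.17 and 285.73 FPKM (knockout) and 284.37, 302.99 and 271.62 FPKM (wild type) and was, like Cox8b, nearly level. Its share of the 3 genes was lowest in knockout library 1, at 21.4%, and highest in wild-type library 2, at 33.0%, while the share of Atp5g1 stayed between 38.3% and 43.6%. Log2 fold changes were 0.12 (SE 0.16) for Atp5g1, 0.02 (SE 0.11) for Atp5g2 and 0.13 (SE 0.18) for Atp5g3. The log2 ratio to Atp5g3 differed by -0.01 for Atp5g1 (exact permutation p = 0.9) and by -0.11 for Atp5g2 (exact permutation p = 0.8). The level of Atp5g2 is uncertain, since 40.2% of its 31-base words occur in transcripts of other genes. Its expected counts were whole in all libraries, so no division of its reads was seen.

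Atp5s, coupling factor B, is named after its values were seen and is not a core subunit. It measured 6.69, 6.26 and 7.35 FPKM in knockout and 6.00, 5.43 and 4.72 FPKM in wild-type muscle, so the groups did not overlap. FPKM separated the groups for 1 of the 46 members, this gene, against 7.55% of all genes tested (5.86% higher and 1.7% lower in the knockout). Its log2 fold change was 0.28 (SE 0.14), with an adjusted p of 0.994 in the edgeR fit, and 0.17 without knockout library 3.

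The members varied together from library to library. On CPM scaled by TMM, wild-type library 2 was the lowest of the 6 libraries for 38 of 46 members (82.6%), against 22.7% of all genes tested. This held for 4 of 4 genes of complex II, 9 of 9 of complex III, 10 of 15 of complex IV, 5 of 5 of the F1 sector and 9 of 11 of the Fo sector and stalk. FPKM as deposited gave 37 of 46 (80.4%, against 25.1% of all genes) and DESeq2 size factors 38 of 46. The median deviation of the members from their own 6-library mean was -0.27 in wild-type library 2. It was 0.05 and 0.09 in wild-type libraries 1 and 3, and 0.16, -0.00016 and -0.04 in knockout libraries 1, 2 and 3. Knockout library 1 was the highest for 28 of 46 members on this scale (60.9%, against 29.9% of all genes) and for 43 of 46 in FPKM (93.5%, against 62.2%). Genes are not replicates. Wild-type library 2 lay apart from the other 2 wild-type libraries. The within-group SD of a member was 0.18 in the median on the log2 scale, against 0.20 for all genes tested.

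**Figure D4:**
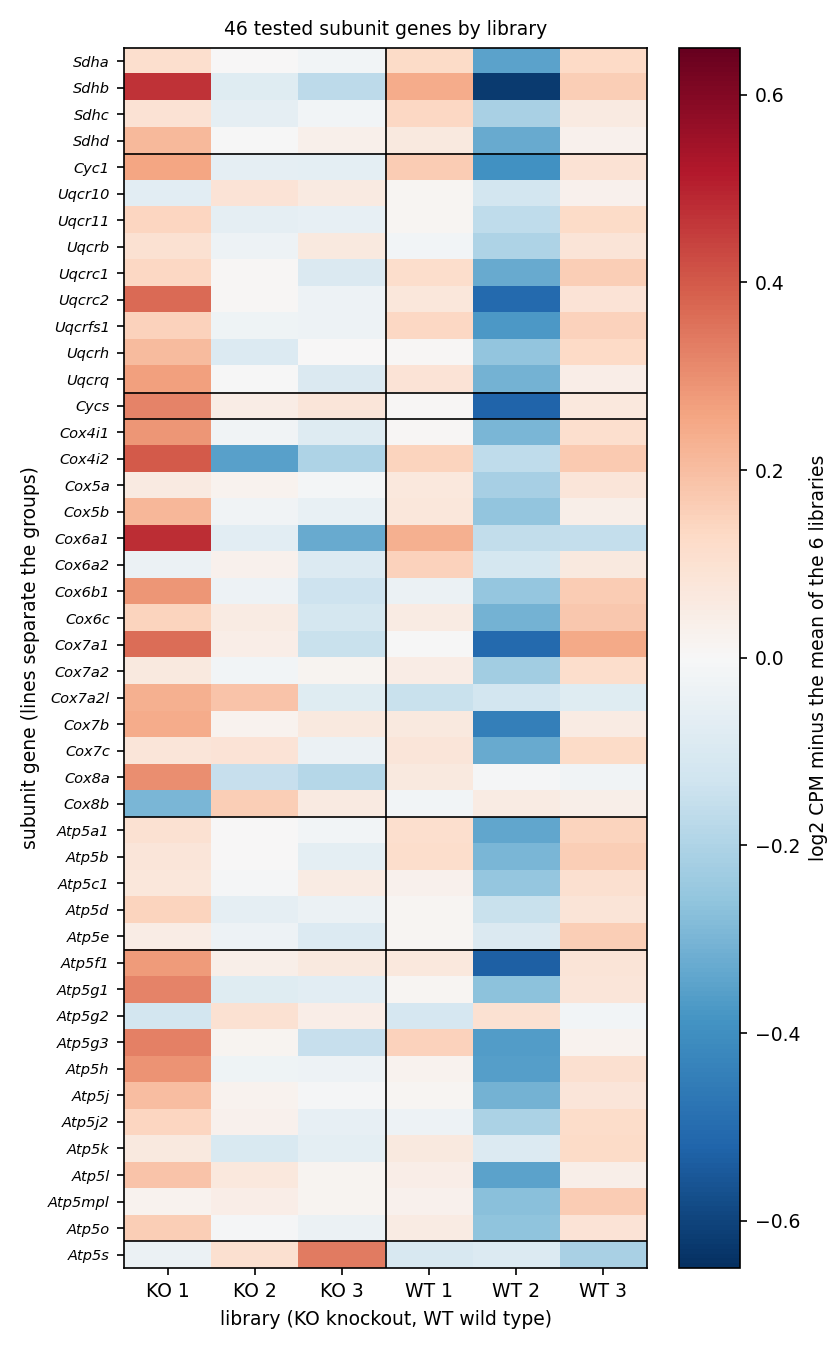
Log2 CPM of the 46 tested genes in each library minus the gene's mean over the 6 libraries (red higher, blue lower); lines separate the complexes and the genotypes. Wild-type library 2 is blue for 44 of 46 genes. Knockout library 1 and wild-type library 3 are each red for 41, and wild-type library 1 for 38. Cox8b, Atp5g2, Atp5s, Cox6a2 and Uqcr10 are blue in knockout library 1, and Cox8b and Atp5g2 are red in wild-type library 2.

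Cox8b lay farthest from the shared pattern: its deviations were -0.29, 0.16 and 0.06 in knockout libraries, against -0.02, 0.05 and 0.04 in wild type. Atp5s came next, and Cox6a1 followed with 0.48, -0.07 and -0.33 in the knockout and 0.23, -0.16 and -0.15 in wild type. Atp5o, the stalk protein OSCP, lay closest to the median of the members. Sdhb had the widest swing: 0.47 for knockout library 1, but -0.62 for wild-type library 2.

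Slow fibre genes were set beside this pattern. Their mean log2 CPM over 10 genes was 7.71, 7.41 and 3.32 in knockout libraries, against 6.13, 3.52 and 6.05 in wild type, so knockout library 3 and wild-type library 2 were both low. The members lay below their own mean in 44 of 46 cases in wild-type library 2 (median deviation -0.27). They did so in 32 of 46 in knockout library 3 (median deviation -0.04, the second lowest of the 6 libraries). In knockout library 2, with a slow fibre level of 7.41, 23 members lay above and 23 below their own mean (median deviation -0.00016). The median deviation was higher in wild-type libraries 1 and 3 (0.05 and 0.09), whose slow fibre levels were lower, at 6.13 and 6.05. Knockout library 1 had a median deviation of 0.16 at a slow fibre level of 7.71. All 10 slow fibre genes had a higher mean in the knockout and 0 passed, among them Myl6b (log2 fold change 0.67, SE 0.27; 0.43 without knockout library 1) and Csrp3 (1.63, SE 0.66), which moved to 1.03 when knockout library 1 and to 2.25 when wild-type library 1 was left out. Of 10 fast fibre genes, 9 had a lower mean and 0 passed. Among the 9 was Casq1 (log2 fold change -0.32, SE 0.27, or -0.08 without knockout library 1 and -0.54 without knockout library 3). Atp2a1 was another (-0.28, SE 0.29, or -0.10 without knockout library 1). The remaining gene, Myh1, had a higher mean. It measured 1739.23, 309.17 and 231.37 FPKM in knockout and 867.29, 75.69 and 667.61 FPKM in wild-type muscle, highest in knockout library 1 and lowest in wild-type library 2. The part of fibre types in the pattern of the members was not tested.

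The citric acid cycle list, with 13 genes of the matrix enzymes that supply the chain, had the same low library. Its median deviation was 0.07, 0.0090 and 0.01 in the knockout and 0.05, -0.28 and 0.11 in wild type. Of its genes 11 had a higher mean and 0 passed, with a median log2 fold change of 0.04. Dld, the dehydrogenase subunit shared by several matrix complexes, differed by 0.23 (SE 0.16) on the log2 scale, and Sucla2, a succinyl-CoA ligase subunit, by 0.16 (SE 0.17). The difference of Dld was 0.14 with knockout library 1 left out and 0.09 with wild-type library 2 left out.

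Assembly factors build complexes II to V but are not part of them. Of 39 genes 38 were tested, and 27 had a higher mean in the knockout, with 0 past the threshold and a median log2 fold change of 0.06. Their median deviation was -0.04, 0.02 and 0.05 in the knockout and -0.03, -0.11 and 0.02 in wild type. Cox20, a chaperone of a mitochondrially encoded complex IV subunit, measured 31.25, 18.59 and 19.42 FPKM in knockout and 16.73, 14.22 and 18.43 FPKM in wild-type muscle. The knockout libraries all lay above wild type, the nearest at 18.59 against 18.43 FPKM. In FPKM this held for 4 of 38 assembly factors, against 5.86% of all genes tested. In CPM scaled by TMM it held for 1 of 38, Cox20, against 4.67%. The log2 fold change of Cox20 was 0.35 (SE 0.16), with an adjusted p of 0.994 in the edgeR fit, and 0.21 without knockout library 1. Hccs, which attaches haem to cytochromes c and c1, had a log2 fold change of 0.30 (SE 0.20), or 0.09 with knockout library 1 left out and 0.17 with wild-type library 2 left out.

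A further 4 small proteins of complexes IV and V gave 2 higher and 2 lower means and 0 past the threshold. Ndufa4, found in complex IV, measured 470.19, 349.67 and 357.40 FPKM in knockout muscle and 356.76, 278.20 and 355.70 FPKM in wild-type muscle, with a log2 fold change of 0.17 (SE 0.12), or 0.27 without wild-type library 3 and 0.07 without wild-type library 2. Its relative Ndufa4l2 had a log2 fold change of -0.36 (SE 0.23), which was -0.18 when wild-type library 1 and -0.59 when wild-type library 2 was left out.

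**Figure D5:**
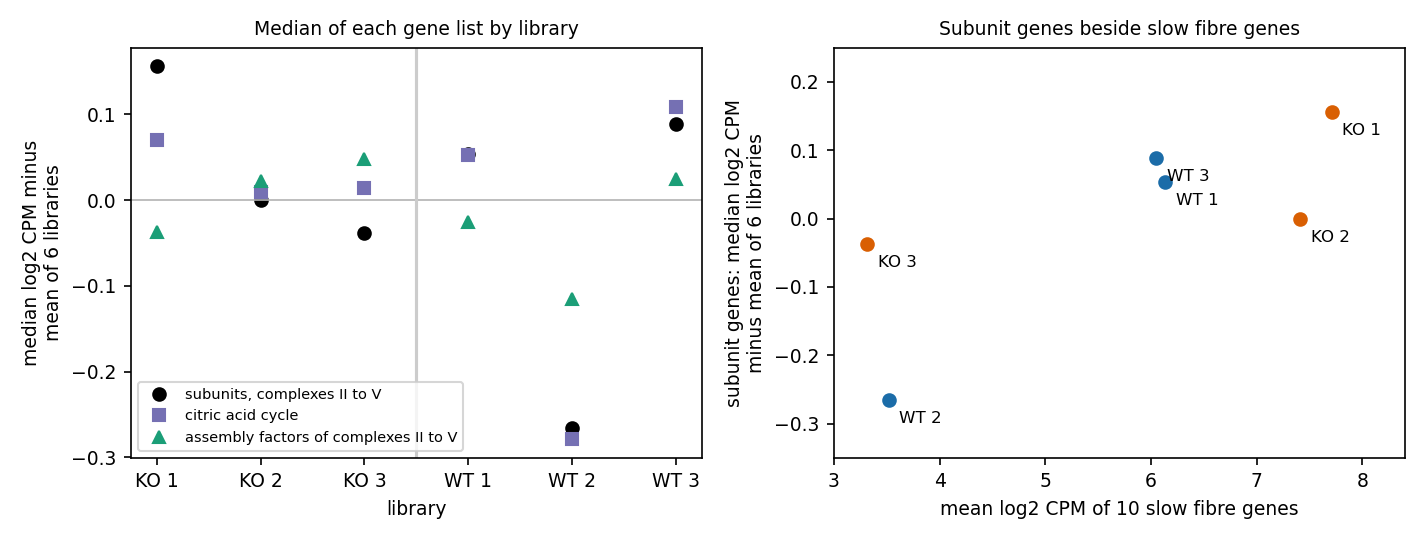
Left, median deviation of log2 CPM from the 6-library mean for the subunit genes (black), citric acid cycle genes (purple) and assembly factors (green) in each library. Right, the same median of the subunit genes against the mean log2 CPM of 10 slow fibre genes, 1 point per library. Wild-type library 2 lies at -0.27 with a slow fibre level of 3.52, and knockout library 3 at -0.04 with a slow fibre level of 3.32. Knockout library 2 lies at -0.00016 with a slow fibre level of 7.41.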

How the data were processed

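The deposited tables give an expected count and an FPKM value per gene, per the file headers and names; 26.2% to 27.5% of the values are not whole. The deposited counts are not normalized, and the authors' FPKM are scaled by transcript length and library total. RSEM 1.2.12, Bowtie2 2.2.5, HISAT2 2.0.4 and GRCm38 are named in the submitters' processing notes; the sources used here do not give annotation, filters or strand. RSEM divides ambiguous reads by estimation: 5 of 49 members had non-whole counts in all libraries. The gene spans of 14 members, introns included, overlap an antisense gene. Without strand, reads from stretches that lie in exons of both genes cannot be told apart. Overlap of exons was not examined.

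Counts were rounded, filtered with filterByExpr (minimum count 10; 12774 genes), scaled by TMM and tested with edgeR 4.0.16 (R 4.3.3) by the quasi-likelihood test, two-sided, Benjamini-Hochberg over all genes, threshold 0.05. SE was obtained from the fold change and the F statistic. Log2 CPM used a prior count of 2. Isoform ratios were taken on FPKM and compared by two-sided exact permutation. DESeq2 1.42.0 and limma 3.58.1 served as alternatives, with other filters and scalings, a replicate block, a slow fibre covariate and each library left out. The pipeline was tested on 3 simulations with 200 changed genes, in equal parts 2-fold and 4-fold. Counts were drawn for each gene on its own, without the shifts that genes share within a library. The recovery below may therefore not hold for these 6 libraries. On average edgeR called 50.33 of the 2-fold and 93 of the 4-fold genes, with 11.33 false calls. DESeq2 called 62 and 93, with 30.33 false calls. Genes named with fold changes were complex II, Cyc1, Cycs, the genes of subunits 4 (Cox4), 6a, 6b, 7a, 7b, 8 and c, and the 2 others of smallest p in each group or list; Atp5s was added. Members and lists were chosen with earlier results of these data known. Promoters are from RefSeq (GRCm38.p6), positions and 31-base words from GENCODE M21.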

Additional observations from a re-analysis of the deposited data

How the results depend on the processing

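No member passed the threshold in any of the 15 alternative fits, and the lowest adjusted p of a named gene other than Tmem182 was 0.512. Same-numbered libraries had correlated deviations for numbers 1 and 2 (0.52 and 0.18) but not for number 3 (-0.12). Pairing was taken only where all 3 pairs correlate, so the numbers were not used as pairs, and knockout library 3 correlated best with wild-type library 2 (0.43). With a replicate block edgeR called 1 gene and 0 members, and the median log2 fold change of members was 0.08. DESeq2's Wald test called 6 genes, 0 of them members. Leaving out 1 library at a time gave 0 to 1 genes called; the call of Tmem182 was lost in 2 of these edgeR fits, with an adjusted p of 0.0716 when knockout library 2 and of 0.0529 when wild-type library 3 was left out. The median log2 fold change of members ran from -0.02 to 0.14.

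Differences in the log2 ratio changed sign when 1 library was left out: -0.084 to 0.033 for Atp5g1/Atp5g3, -0.27 to 0.091 for Atp5g2/Atp5g3, -0.27 to 0.11 for Cox6a2/Cox6a1, -0.19 to 0.26 for Cox8b/Cox8a. Over the 6 fits without 1 library, log2 fold changes ran from -0.029 to 0.14 for Atp5c1, -0.11 to 0.017 for Atp5e, -0.024 to 0.19 for Atp5g1, -0.035 to 0.077 for Atp5g2, -0.016 to 0.23 for Atp5g3, -0.0037 to 0.21 for Cox4i1, -0.36 to 0.079 for Cox4i2, -0.0024 to 0.15 for Cox5b. They ran from -0.18 to 0.25 for Cox6a1, -0.053 to 0.19 for Cox6b1, -0.024 to 0.34 for Cox7a1, -0.058 to 0.10 for Cox7a2, -0.059 to 0.15 for Cox7c, -0.18 to 0.080 for Cox8a, -0.14 to 0.082 for Cox8b, -0.076 to 0.18 for Cyc1. The rest ran from -0.098 to 0.12 for Sdha, -0.10 to 0.28 for Sdhb, -0.090 to 0.075 for Sdhc, -0.012 to 0.29 for Sucla2, -0.0015 to 0.18 for Uqcrq.

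Signs also changed under other settings. With a filter of a mean of at least 5 FPKM the log2 fold change was 0.0092 for Cox8a. With limma on log2(FPKM + 1) the log2 fold change was 0.042 for Cox8a, 0.014 for Cox8b, 0.016 for Atp5e. With limma-voom and quality weights the log2 fold change was -0.066 for Sdha, -0.15 for Sdhb, -0.079 for Sdhc, -0.086 for Cyc1, -0.047 for Cox4i1, -0.055 for Cox6a1, -0.097 for Cox6b1, -0.072 for Cox7a1, -0.052 for Cox7a2, 0.070 for Cox8b, -0.063 for Atp5g1, -0.016 for Atp5g3, -0.019 for Uqcrq, -0.022 for Cox5b, -0.0050 for Cox7c, -0.022 for Atp5c1. With a covariate for slow fibre genes the log2 fold change was -0.024 for Sdhc, -0.051 for Cox6a1. With library totals in place of TMM, chosen after seeing the data, the log2 fold change was 0.025 for Cox4i2, 0.087 for Cox8a, 0.014 for Cox8b, 0.027 for Atp5e.

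The cause of these changes of sign was not tested. With 3 libraries a group, an interval of a member is wide, which limits what can be detected.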
